A study of Mus with 4 samples.

Results

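The genes described here are the cytosolic ribosomal protein genes, chosen by name from 2 m6A peak lists of interscapular brown adipose tissue (iBAT). A gene was a member when its symbol was *Rpl* or *Rps* followed by a number with an optional ending, or was *Rplp0*, *Rplp1*, *Rplp2* or *Rpsa*. Pseudogenes named -ps and the S6 kinase genes were left out. By this rule 24 genes carried a peak, out of 10105 named genes with a peak in either list. They held 16 of 18400 peaks (0.087%) in the control list and 21 of 18693 (0.112%) in the knockout list.

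The control list came from iBAT of 8-week-old chow-fed *Wtap* flox/flox mice, and the knockout list from iBAT of *Wtap*-BKO mice (*Wtap* flox/flox UCP1-iCre) of the same age, both C57BL/6. Both groups carry the floxed *Wtap* allele. WTAP is a regulatory subunit of the m6A methyltransferase complex. The Cre is driven by the *Ucp1* locus, so that deletion of *Wtap* is directed to brown adipocytes. The paper compared WTAP protein between whole tissues, and the lists do not show which cells of iBAT lost the gene. For each genotype 1 immunoprecipitate (IP) with an m6A antibody and 1 input were sequenced, each from RNA pooled from several mice, and the authors called peaks as stretches of transcript with more IP than input reads. Without replicates nothing here could be set against the variation among mice, and the depth behind each list is unknown. Intervals below are 95% Wilson intervals, which cover counting error only. In whole tissue, fewer cells of a type and less RNA per cell cannot be told apart.

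Of 10 brown adipocyte markers fixed for the check of the tissue, 10 carried a peak in the *Wtap* flox/flox list and 9 in the *Wtap*-BKO list, where *Elovl3* had none. Of 5 macrophage markers 3 and 4 carried a peak, of 4 lymphocyte markers 1 and 2, and of 5 skeletal muscle markers 3 and 4.

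Ribosomal proteins form the large (Rpl) and small (Rps) subunits of the ribosome together with ribosomal RNA. Their genes are short, their mRNAs are among the most abundant in any cell, and most of these mRNAs begin with a 5ʹ terminal oligopyrimidine (TOP) tract through which the mTOR pathway controls their translation. In mammalian mRNAs generally, m6A is found mostly in long exons and around stop codons. Genome sequence was not used here, so no motif or transcript sequence is shown.

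A smaller share of ribosomal protein genes carried a peak than of all protein-coding genes, but not clearly smaller than of short genes. A RefSeq gene table of GRCm38.p6 holds 85 protein-coding genes that follow the name rule. Of these, 16 carried a peak in the *Wtap* flox/flox list (18.8%, interval 11.9% to 28.4%) and 20 in the *Wtap*-BKO list (23.5%, interval 15.8% to 33.6%). Over all 21896 protein-coding genes of the table the shares were 38.6% and 38.5%. The members are short, with a median span of 3175 bp against 17149 bp for all protein-coding genes, and the longest, *Rps15a*, spans 11774 bp. Among the 8808 protein-coding genes spanning no more than that, 26.2% carried a peak in the *Wtap* flox/flox list and 26.2% in the *Wtap*-BKO list. The interval of the members holds this value in both lists, and both intervals lie below the share over all protein-coding genes. These denominators include genes that are not expressed in iBAT.

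The 61 protein-coding members without a peak in either list included the stalk proteins *Rplp0*, *Rplp1* and *Rplp2*, which recruit translation factors to the large subunit. They also included, to name 3 for their known roles, *Rps6*, the substrate of S6 kinase, and *Rpl5* and *Rpl11*, which bind 5S ribosomal RNA and MDM2. Members with a peak had a median span of 3138 bp and those without 3269 bp. In either list a peak was found on 28.2% of the members, against 44.4% of all protein-coding genes and 30.6% of those spanning no more than 11774 bp. Such a peak was listed for 17 of 53 large subunit members and 7 of 32 small subunit members. Of 77 standard ribosomal proteins 21 carried a peak, and of 8 paralogs 3 did (*Rpl7l1*, *Rpl36al* and *Rps27l*). A further 5 genes of the name rule are pseudogenes in the table, and 0 of them had a peak.

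Ribosomal protein genes have many near-identical pseudogene copies. The gene table holds 321 entries named *Rpl* or *Rps* with -ps, and neither list has a peak on any of them. At least 1 such entry belonged to 18 of the 24 members with a peak and to 45 of the 61 without. How reads that match several copies were treated is not given in the sources used here, so the absence of a peak on a member is uncertain to that extent.

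Other genes of translation carried peaks far more often. Of 78 mitochondrial ribosomal protein genes (*Mrpl* and *Mrps*), which make the separate ribosome of mitochondria, 63 carried a peak in the *Wtap* flox/flox list (80.8%, interval 70.7% to 88.0%) and 44 in the *Wtap*-BKO list (56.4%, interval 45.4% to 66.9%). Of 47 initiation, elongation and termination factors, 33 and 38 carried a peak (70.2% and 80.9%). Of 61 ribosome biogenesis genes, 41 and 46 did (67.2% and 75.4%). The intervals of these 3 lists do not overlap those of the cytosolic ribosomal proteins in either genotype. Their genes are longer, with median spans of 7690, 16623 and 15696 bp, and the part of length in the difference was not tested. Among genes of the mTOR, S6 kinase and 4E-BP pathway, which controls TOP mRNAs, 15 of 17 carried a *Wtap* flox/flox peak and 14 a *Wtap*-BKO peak.

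**Figure D1:**
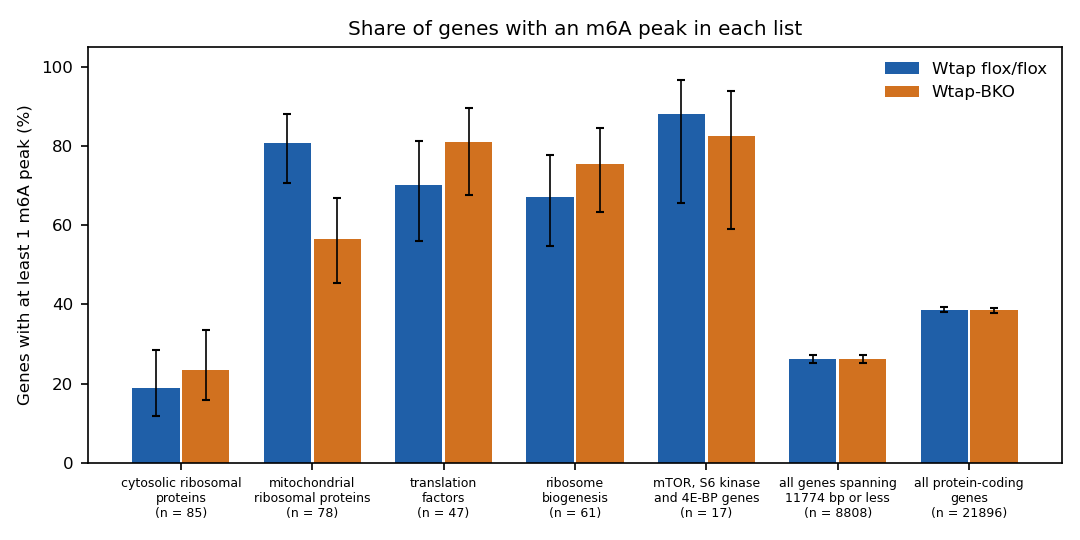
Share of genes with at least 1 m6A peak (%) in the *Wtap* flox/flox (blue) and *Wtap*-BKO (orange) lists, for cytosolic ribosomal proteins, 4 related gene lists and all genes; lines are 95% Wilson intervals and n is the number of genes. Cytosolic ribosomal proteins stood at 18.8% and 23.5%, and mitochondrial ribosomal proteins at 80.8% and 56.4%.

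Of the ribosome genes whose names fall outside the rule, *Fau* (ribosomal protein S30 fused to a ubiquitin-like protein) and *Rack1*, a scaffold on the small subunit, had no peak in either list.

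The member peaks lay mostly towards the 3ʹ end of the gene, as did the peaks of the lists as a whole. The position of a peak was taken as the place of its middle exonic base along the gene span, introns included, since exons were not annotated in the table, and the span was divided into 3 equal parts. Among 15 *Wtap* flox/flox peaks inside their gene, 10 lay in the 3ʹ part of the span (66.7%, interval 41.7% to 84.8%), 3 in the middle and 2 in the 5ʹ part (13.3%, interval 3.74% to 37.9%). Among 21 *Wtap*-BKO peaks, 15 lay in the 3ʹ part (71.4%, interval 50% to 86.2%), 4 in the middle and 2 in the 5ʹ part (9.52%, interval 2.65% to 28.9%). Over all peaks inside their gene, 65.8% of the *Wtap* flox/flox list and 62.5% of the *Wtap*-BKO list lay in the 3ʹ part, and 20.7% and 22.8% in the 5ʹ part. The intervals of the members hold these 4 values. Over the peaks on genes spanning no more than 11774 bp, the 3ʹ part held 53.8% in the *Wtap* flox/flox list and 48.6% in the *Wtap*-BKO list, and the 5ʹ part 26.6% and 31.4%. The *Wtap* flox/flox intervals hold these values too. The share of the *Wtap*-BKO members was higher in the 3ʹ part and lower in the 5ʹ part than over these short genes. Their intervals leave out both values, but narrowly. The protein-coding genes within this span limit had a median span of 4193 bp, against 3175 bp for the members. Taken by the 5ʹ edge of the peak instead of its middle, 19% of *Wtap*-BKO member peaks lay in the 5ʹ part. The peaks of the short genes were not placed by this edge, so the 19% has no background beside it.

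Nearest to the 3ʹ end were the peaks of *Rpl4*, *Rpl8*, *Rpl9*, *Rpl14*, *Rpl26*, *Rpl29* and *Rpl41*, whose middle bases lay between 38 and 165 bp from the end of the gene. In *Rpl4* (ENSMUSG00000032399, plus strand of chromosome 9 of GRCm38), a protein that lines the exit tunnel of the large subunit, the *Wtap* flox/flox peak ran from 64178277 to 64178546. The *Wtap*-BKO peak ran from 64178247 to the same end. In *Rpl29* (ENSMUSG00000048758, plus strand of chromosome 9), the *Wtap* flox/flox peak ran from 106431302 to 106431568 and so reached the last base of the gene. The *Wtap*-BKO peak, from 106431361 to 106431538, lay wholly within it. *Rpl41* (ENSMUSG00000093674, minus strand of chromosome 10) encodes the smallest ribosomal protein. Its peaks ran from 128548114 to 128548413 in the *Wtap* flox/flox list and to 128548383 in the *Wtap*-BKO list, and on this strand the common edge is the 3ʹ one.

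Peaks in the 5ʹ part were seen in 3 genes. *Rpl34* (ENSMUSG00000062006, minus strand of chromosome 3) had a *Wtap* flox/flox peak from 130730161 to 130730309 with its middle 163 bp from the 5ʹ end, and a *Wtap*-BKO peak from 130730131 to 130730368 with its middle 148 bp from it. *Rpl28* (ENSMUSG00000030432, plus strand of chromosome 7) had a *Wtap* flox/flox peak from 4793171 to 4793349, with its middle 295 bp from the 5ʹ end. *Rpl7l1* (ENSMUSG00000063888, minus strand of chromosome 17), a paralog of *Rpl7*, was the only member with 2 peaks in a list. Its *Wtap*-BKO peak in 3 blocks from 46780548 to 46782656 began at the 5ʹ end of the gene and had no *Wtap* flox/flox peak on it. The other, from 46774027 to 46774206, lay 210 bp from the 3ʹ end and covered the *Wtap* flox/flox peak from 46774057 to 46774206.

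In the middle of their genes lay the peaks of *Rps24* and *Rps27l* in both lists and that of *Rpl7* in *Wtap*-BKO mice only. *Rps25* (ENSMUSG00000009927) stood apart, since its *Wtap* flox/flox peak from 44407348 to 44407438 of chromosome 9 lay upstream of the RefSeq gene by 321 bp at its middle. All 91 of its bases fell within the table's entry for *Trappc4*. For *Rpl26* (ENSMUSG00000060938), 80 of 237 *Wtap* flox/flox bases and 51 of 237 *Wtap*-BKO bases lay past the 3ʹ end of the RefSeq gene. The names in the lists come with Ensembl gene identifiers, whose models can differ from the RefSeq spans.

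Some member peaks share bases with other genes. The *Wtap*-BKO peak of *Rpl13a* shared bases with a listed peak of *Gm45713*, and the *Wtap* flox/flox peak of *Rpl36al* with one of AC099934.1, each on the same strand. For these genes the source of the signal is uncertain.

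**Figure D2:**
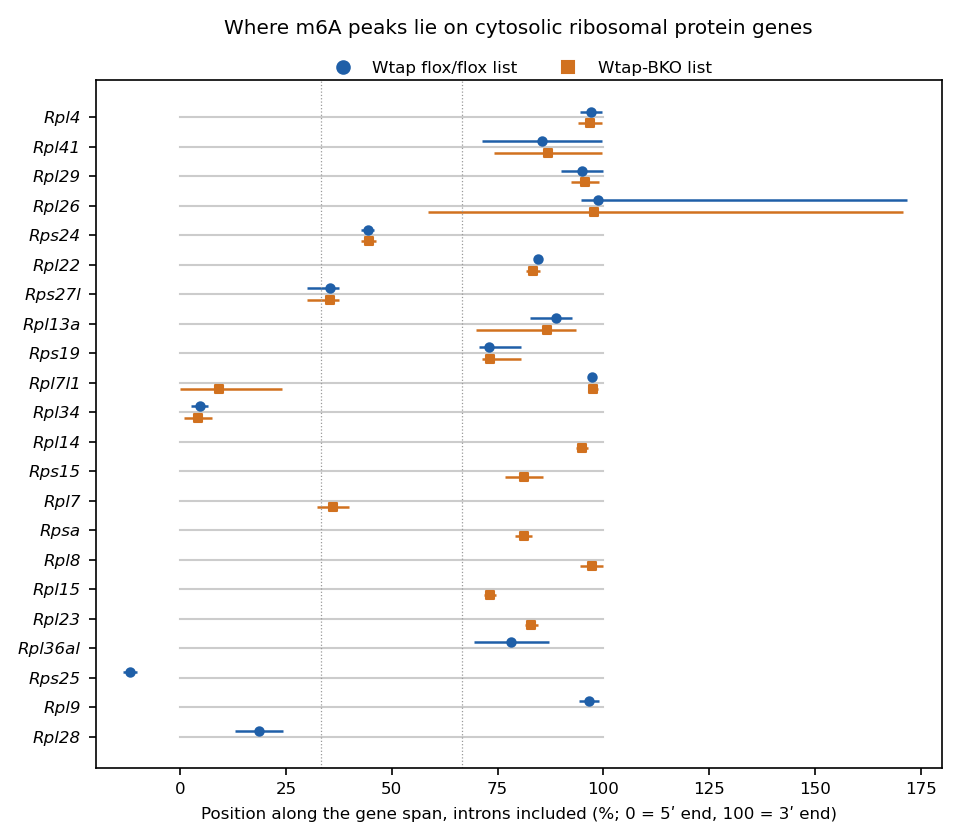
Position of each member peak along the span of its gene, introns included (x axis, %, with 0 the 5ʹ end and 100 the 3ʹ end), for 22 of the 24 genes with a peak; markers are the middle exonic base, lines join the outer edges and dotted lines divide the span into 3 equal parts. Most markers lie in the 3ʹ part in both the *Wtap* flox/flox (blue) and *Wtap*-BKO (orange) lists, while *Rpl34*, *Rpl28* and 1 peak of *Rpl7l1* lie in the 5ʹ part and *Rps25* lies upstream of the RefSeq gene.

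Member peaks had low fold enrichment. The fold enrichment is the authors' IP over input ratio for a genotype, and since the lists were called separately it is set only against its own list. In *Wtap* flox/flox mice it ran from 1.82 to 7.12 over the 16 member peaks with a median of 3.19, against 6.58 over the whole list, and 15 of the 16 lay below the list's median. In *Wtap*-BKO mice it ran from 1.27 to 15.9 with a median of 2.39, against 4.65, and 19 of 21 lay below the median. By construction 50% and 49.9% of all peaks do so. The exceptions were *Rpl9* (7.12) in the *Wtap* flox/flox list and *Rpl34* (15.9) and *Rpl7* (6.07) in the *Wtap*-BKO list. The median member peak exceeded 18.9% of the *Wtap* flox/flox list and 16.4% of the *Wtap*-BKO list. Low values were not particular to the members, with 25% and 13.8% for mitochondrial ribosomal proteins and 24.2% and 23.8% for translation factors. Ribosome biogenesis genes stood at 50.6% and 46.5%, and the mTOR, S6 kinase and 4E-BP genes at 40.2% and 42.6%.

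By false discovery rate (FDR) the same peaks were not weak. The median member peak had a smaller FDR than 48.7% of the *Wtap* flox/flox list and 63.0% of the *Wtap*-BKO list. *Rpl41* combined both extremes. Its *Wtap* flox/flox peak had a log10 FDR of −180, stronger than 98.2% of the list, at a fold enrichment of 1.82, higher than only 2.86% of it. The member peaks had a median of 192 exonic bases against 240 for the *Wtap* flox/flox list, where 12 of 16 were shorter than the list's median. In the *Wtap*-BKO list the medians were 205 and 210, and 11 of 21 were shorter. In the *Wtap* flox/flox list 4 of 16 member peaks were split over 2 or more exonic blocks (25% against 15.4% of all peaks), and in the *Wtap*-BKO list 5 of 21 (23.8% against 19.8%).

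Overlap between the lists was next described by gene. Of the 24 genes, 12 carried a peak in each genotype, 4 were listed for *Wtap* flox/flox alone and 8 for *Wtap*-BKO alone. Of all 10105 named genes with a peak, 73.3% were listed for both, 13.5% for *Wtap* flox/flox alone and 13.2% for *Wtap*-BKO alone. By peak, 12 of 16 *Wtap* flox/flox member peaks overlapped a *Wtap*-BKO peak of the same strand by 1 exonic base or more (75%, interval 50.5% to 89.8%), against 67.8% of the whole list. In the other direction 12 of 21 *Wtap*-BKO member peaks had such a counterpart (57.1%, interval 36.5% to 75.5%), against 68% of the whole list. Both intervals hold the background. With at least 50% of its bases shared, 12 of 16 *Wtap* flox/flox member peaks had a counterpart (75%, against 57.7% of the whole list) and 11 of 21 *Wtap*-BKO member peaks (52.4%, against 61.7%). The *Wtap*-BKO peak that no longer counted was that of *Rpl22*, of whose 328 bases 120 were shared. In *Rps27l* both edges were the same.

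The 4 genes with a peak in *Wtap* flox/flox mice only were *Rpl9*, *Rpl28*, *Rpl36al* and *Rps25*. *Rpl36al* (ENSMUSG00000049751, minus strand of chromosome 12, from 69182907 to 69183142) had a log10 FDR of −38.7, stronger than 85.7% of the list. The other 3 had log10 FDRs of −2.47, −2.08 and −3.49 and were stronger than 9.40%, 4.28% and 23.2% of it.

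In *Wtap*-BKO mice alone a peak was listed for 8 genes, among them *Rpl7*, *Rpl8*, *Rpl14*, *Rpl15*, *Rpl23*, *Rps15* and *Rpsa*. *Rpl14* (ENSMUSG00000025794) had a log10 FDR of −9.77, stronger than 63.0% of the *Wtap*-BKO list, with its peak from 120574448 to 120574536 on the plus strand of chromosome 9, with 89 bases and its middle 161 bp from the 3ʹ end. *Rpsa*, which encodes a small subunit protein also known as the laminin receptor, had −7.46 at a fold enrichment of 1.35. That fold was higher than only 0.54% of the list. *Rps15* and *Rpl8* had similarly low fold enrichments of 1.27 and 1.32, with log10 FDRs of −8.69 and −7.30. *Rpl7* had −7.84 at a fold enrichment of 6.07. *Rpl15* and *Rpl23*, with −2.82 and −2.50, were stronger than 17.0% and 11.7% of the list.

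With only peaks under an FDR of 1e-05 counted, 9 members remained in the *Wtap* flox/flox list and 18 in the *Wtap*-BKO list. The whole lists moved the other way, from 11602 *Wtap* flox/flox peaks under this limit (63.1% of the list) to 10911 *Wtap*-BKO peaks (58.4%), and from 29.9% to 27.4% of all protein-coding genes. Of the 19 members under the limit in either list, 8 were so in both, 10 for *Wtap*-BKO alone and 1, *Rpl36al*, for *Wtap* flox/flox alone. Of the 7783 named genes under the limit in either list, 13.1% were so in *Wtap*-BKO only and 20.1% in *Wtap* flox/flox only.

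**Figure D3:**
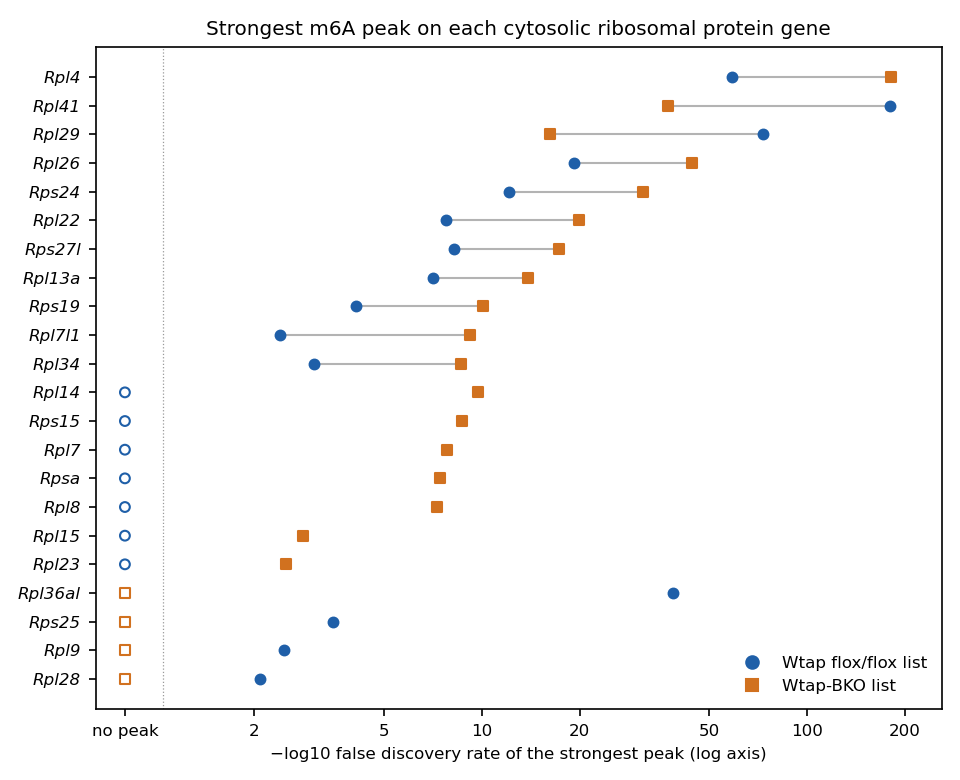
The −log10 FDR of the strongest peak (log axis) on 22 of the 24 genes in the *Wtap* flox/flox (blue circles) and *Wtap*-BKO (orange squares) lists; open symbols at the left mark genes with no listed peak. Of the 11 genes drawn with peaks in both lists, the *Wtap*-BKO value was the larger for 9, and *Rpl29* and *Rpl41* were the exceptions.

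For the 12 genes with peaks in both lists the strongest peaks were set side by side. The *Wtap*-BKO peak had the smaller FDR in 10 of 12 genes, against 38.8% of the 7409 named genes with peaks in both lists. Since the lists may differ in depth, each peak was also ranked within its own list. The *Wtap*-BKO peak then ranked higher in 10 of 12 members, against 51.2% of the 7409 genes and 53.5% of the 1916 of them that are protein-coding and span no more than 11774 bp. The median difference in rank was 26 percentage points towards *Wtap*-BKO for the members and 0.355 for all genes. By rank of the fold enrichment the *Wtap*-BKO peak was higher in 9 of 12, against 47.3%. This comparison was chosen after the values were seen and has no test.

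Among large subunit genes, the log10 FDR of *Rpl4* went from −58.6 in *Wtap* flox/flox to −181 in *Wtap*-BKO mice, or from the rank of 91.1% to that of 99.0%. *Rpl26*, a protein at the tunnel exit that also binds *p53* mRNA, went from −19.2 to −44.3 (72.3% to 91.9%). *Rpl22*, an RNA-binding protein whose paralog *Rpl22l1* had no peak, went from −7.75 to −19.9 (50% to 80.1%). The *Wtap*-BKO value was the stronger in all 3. *Rpl13a*, which also takes part in translational silencing in macrophages, went from −7.08 to −13.9 (47.4% to 72.2%). *Rpl34* went from −3.04 to −8.64 (17.5% to 59.7%), and its fold enrichment was higher than 34.9% of the *Wtap* flox/flox list and 90.7% of the *Wtap*-BKO list. *Rpl7l1* went from −2.40 to −9.21 (8.65% to 61.5%), but its strongest *Wtap*-BKO peak was the one at the 5ʹ end. At the peak shared by both lists, near the 3ʹ end, the *Wtap*-BKO value was −5.57.

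The 4 small subunit genes with peaks in both lists all ranked higher in the *Wtap*-BKO list. *Rps24* went from −12.1 to −31.4 (61.4% to 87.8%). *Rps27l*, a paralog of *Rps27* and a target of p53, went from −8.20 to −17.3 (51.5% to 77.2%). *Rps19*, which is mutated in Diamond-Blackfan anaemia as is *Rps24*, went from −4.11 to −10.1 (30.0% to 63.8%).

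The 2 genes that went the other way were both strong in *Wtap* flox/flox mice. *Rpl29* went from −73.3 to −16.2 (93.3% to 75.8%), and its peak from 267 to 178 bases. *Rpl41* went from −180 to −37.3 (98.2% to 90.0%). *Rpl4*, next to them in rank in the *Wtap* flox/flox list, did not share their direction.

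None of the related gene lists described below ranked higher in *Wtap*-BKO mice as often as the members, 10 of 12. Some marker lists did, though they are small. Of markers with peaks in both lists, 3 of 3 for macrophages, 1 of 1 for lymphocytes and 3 of 3 for skeletal muscle ranked higher. For brown adipocytes 3 of 9 did. Over the 7409 named genes with peaks in both lists the share was 51.2%. The genes named below have the smallest *Wtap* flox/flox FDRs of their lists. That choice favours a weaker *Wtap*-BKO value, so the direction of a list is given by its counts. Ranks within the lists are in brackets. Of 42 mitochondrial ribosomal protein genes with peaks in both lists, the strongest peak ranked higher in *Wtap*-BKO mice in 9, and 21 genes had peaks in *Wtap* flox/flox mice only against 2 in *Wtap*-BKO mice only. *Mrpl12* and *Mrpl41* were given an FDR of 0 in the *Wtap* flox/flox list. In the *Wtap*-BKO list their log10 FDRs were −36.6 (99.2% to 89.8%) and −181 (99.2% to 99.0%). *Mrps7* had −275 and −59.8 (99.0% to 94.4%). Of 32 translation factors in both lists, 17 ranked higher in *Wtap*-BKO mice, with 1 gene listed for *Wtap* flox/flox alone and 6 for *Wtap*-BKO alone. *Eif4g1* and *Eef2* were also given an FDR of 0 in *Wtap* flox/flox mice. In *Wtap*-BKO mice *Eif4g1* had −143 (99.2% to 98.6%) and *Eef2* −79.6 (99.2% to 96.4%). *Eef1a1*, the elongation factor that brings tRNA to the ribosome and itself a TOP mRNA, had −221 and −17.5 (98.6% to 77.5%). Of 40 ribosome biogenesis genes in both lists, 22 ranked higher in *Wtap*-BKO mice, with 1 and 6 genes in 1 list only. *Ncl* (nucleolin) had −104 and −150 on peaks at different places, *Imp3* had −168 and −77.1, and *Las1l* had −67.3 and −86.0. Of 13 genes of the mTOR, S6 kinase and 4E-BP pathway in both lists, 1 ranked higher in *Wtap*-BKO mice. *Eif4ebp1*, the translational repressor, had −272 and −26.6 (99.0% to 85.3%), and its paralog *Eif4ebp2* −130 and −24.2 (96.9% to 83.8%).

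**Figure D4:**
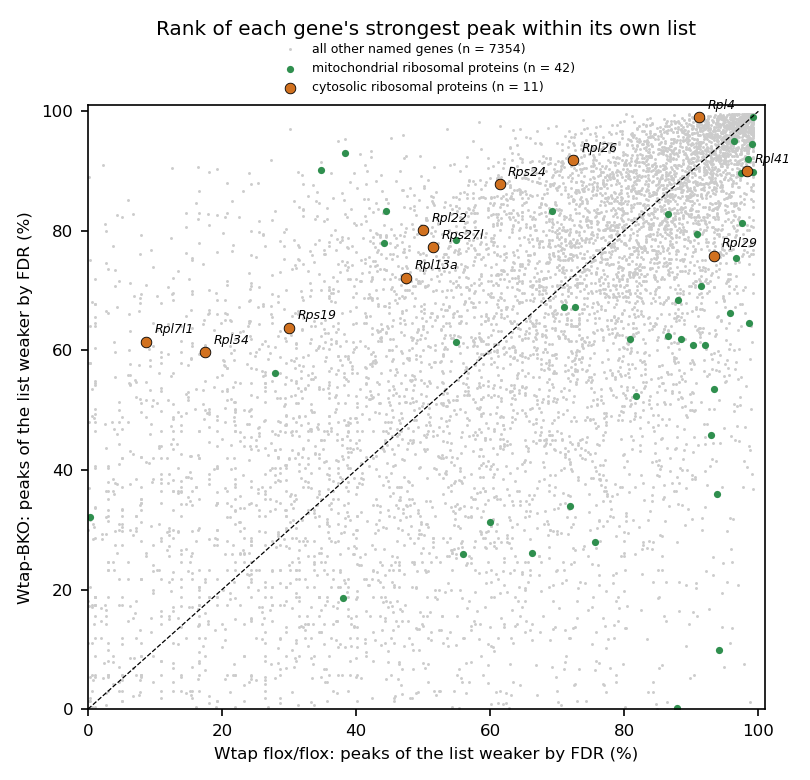
Rank of the strongest peak of each gene within its own list, as the percentage of peaks with a weaker FDR, in *Wtap* flox/flox (x axis) and *Wtap*-BKO (y axis) mice for named genes with peaks in both; the dashed line marks equal rank. Of the cytosolic ribosomal proteins drawn (orange) 9 of 11 lie above the line, and of the mitochondrial ribosomal proteins (green) 9 of 42.

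A peak depends on how much of a transcript is present as well as on its methylation, and transcript levels are not in the lists. Markers of other cell types, like the members, had more listed peaks in *Wtap*-BKO mice, from 1 pool per genotype. Peaks went from 4 to 10 on the 5 macrophage markers, from 1 to 4 on the 4 lymphocyte markers and from 3 to 6 on the 5 skeletal muscle markers, while those on the 10 brown adipocyte markers went from 27 to 23. By gene, macrophage markers with a peak went from 3 to 4, lymphocyte from 1 to 2 and skeletal muscle from 3 to 4. Brown adipocyte markers went from 10 to 9. The whole lists held 18400 and 18693 peaks. *Adgre1*, *Cd3e* and *Ckm* had no peak in either list. The part of other cell types and of transcript levels in the values of the ribosomal protein genes was not tested.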

How the data were processed

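MeRIP-seq peaks were taken from 2 lists deposited by the authors, 1 per genotype, each from 1 pooled IP against 1 pooled input. The 4 samples were grouped by their titles. The submitters' processing notes name fastp 0.19.11, BWA 0.7.12, HOMER 4.9.1 and GRCm38.p6, and the methods name MACS2 as the peak caller. The layout with exonic blocks is that of exomePeak, and the caller was not settled here. The authors' threshold was a false discovery rate (FDR) of 0.05, and the largest in the lists were 0.0447 and 0.0479. The deposited values are a p-value for each peak, 2 scores (that p-value and the FDR as log10) and the ratio of IP over input (fold enrichment), whose scaling for library size is not stated. Depth is unknown, and an unlisted peak is one that did not reach the threshold.

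Peaks were matched in Python 3.11.15 (numpy 2.4.6, pandas 2.3.3, scipy 1.17.1, matplotlib 3.10.9) by at least 1 shared exonic base on the same strand. The matching was tested on simulated data. Ranks give the share of the list with a weaker FDR or a lower fold enrichment. Positions are 1-based on GRCm38, and gene spans came from a RefSeq table of GRCm38.p6, matched by symbol for all 24 genes. Strand came from the lists. Named were members with a peak in 1 list only, with 2 peaks, with an unmatched peak or among the 10 smallest FDRs of a list, *Rplp0*, *Rplp1*, *Rplp2* and *Rpsa*, *Fau* and *Rack1*, and the 3 genes of each related list with the smallest *Wtap* flox/flox FDR. Members and lists were chosen with earlier results of these data known. Values of some genes are not reported here, while the counts include them. No test between genotypes was made.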

Additional observations from a re-analysis of the deposited data

How the results depend on the processing

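No paired analysis was possible because each genotype has 1 pooled IP and 1 pooled input, and no replicate could be left out. With an FDR under 1e-05, the members with a peak in the *Wtap* flox/flox list went from 16 to 9, and 0 of these 9 peaks (0%, which allows a share of up to 33.3%) lay in the 5ʹ part of the gene, against 13.3% at the authors' threshold, since the weakest peaks were removed. The other alternatives left the counts of members within 1.5 times and the shares within their intervals. They were a list of standard ribosomal proteins, leaving out peaks shared with another gene, 50% of bases shared, any peak on the gene, and other definitions of the 5ʹ part. The share of *Wtap*-BKO member peaks found ran from 42.1% to 63.2%. The lowest value required an FDR under 1e-05 in both lists, and the highest required it of the *Wtap*-BKO peak only. The share over all peaks was not taken at these settings, so neither value has a background beside it. Of the genes with peaks in both lists, 8 of 10 ranked higher in *Wtap*-BKO mice both among standard ribosomal proteins and without genes whose peaks share bases with other genes. These comparisons of rank were added after the data were seen.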

Other observations

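Genes whose names begin with *Rps6k* were left out of the members, and they are grouped here by name only. Of 10 such genes in the gene table, 8 carried a peak in the *Wtap* flox/flox list and 9 in the *Wtap*-BKO list. The shares over all protein-coding genes were 38.6% and 38.5%, and the spans of these 10 genes were not compared. *Rps6* itself had no peak. In 6 of the 8 genes with peaks in both lists the strongest *Wtap* flox/flox peak had the smaller FDR. Over the 7409 named genes with peaks in both lists, the *Wtap*-BKO peak had the smaller FDR in only 38.8%, so this direction was the common one. *Rps6kb1*, the S6 kinase downstream of mTOR, had the strongest peak of the group. Its log10 FDR was −131 in *Wtap* flox/flox mice and −80.8 in *Wtap*-BKO mice, stronger than 97.0% and 96.5% of their own lists. Its fold enrichments were higher than 87.2% and 71.7% of them. *Rps6kl1* had 2 peaks in *Wtap*-BKO mice only, the stronger with a log10 FDR of −2.72. *Rps6ka6* had no peak in either list.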
